A study of Mus musculus with 15 samples.

Results

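The 10 genes described here belong to the circadian clock and were taken by gene name from a table of 56859 genes: Arntl, Npas2, Nr1d1, Nr1d2, Per1, Per2, Per3, Cry2, Dbp and Tef. The list was chosen with earlier results of these data known. Counts of members set beside shares of all genes are therefore a description and not a test. All 10 passed the filter on low counts and were tested among 18038 genes. The clock is a feedback loop of transcription. Arntl (BMAL1) pairs with Clock or its relative Npas2 and switches on the Per and Cry genes, whose proteins then repress that pair, while Nr1d1 and Nr1d2 (REV-ERB alpha and beta) repress Arntl and Npas2. Dbp and Tef are output transcription factors driven by the same pair, so the 2 arms normally rise and fall in opposite phase over the day. In the colon the clock is known to time epithelial renewal, motility and barrier functions, and feeding and inflammation can shift it.

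Colon RNA was taken from male C57BL/6J mice, with a labelled age of 6 to 10 weeks, kept under light and dark periods of 12 hours each. The series models cancer that follows colitis: azoxymethane (AOM), a colon carcinogen, is combined with dextran sulfate sodium (DSS), which injures the epithelium. The labels give AOM at 10 mg/kg on day 0, DSS at 2.5% in the water on days 7 to 11, 28 to 32 and 49 to 53, and injections of saline or of APX3330 (E3330, an inhibitor of APE1/Ref-1) at 25 mg/kg on those same days. The 5 groups of 3 libraries were Control (labelled wild type C57BL/6), saline at day 27 (D27), saline at day 48 (D48), saline at day 100 (D100) and APX3330. Whether Control mice received AOM is not settled, because the shared protocol speaks of every mouse while the group label names none. By the labelled dates D27 falls before the DSS of days 28 to 32, D48 before that of days 49 to 53, and D100 after both. Among saline groups the day therefore cannot be told apart from the number of DSS courses and injections. The titles tie D48 to cycle 1 and D100 to cycle 2, and how these cycles relate to the dates is not given. No day is given for APX3330. The hour at which tissue was taken is not given for any group, so a difference in hour and a difference in treatment cannot be told apart in any comparison below. The age of 6 to 10 weeks is given alike for every group and cannot be the age at sampling at D100, since AOM was given on day 0. Age at sampling is not given, so it cannot be told apart from day or treatment either. The labels do not state that libraries came from separate mice, so a p-value covers only the variation among the libraries, which may not be variation among mice.

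Total counts were 13548661 to 17919613 per library. All 10 markers of colon epithelium had counts in every library. Squamous epithelium markers summed to 1014 and 472 CPM (counts scaled to a common library size) in Control replicates 1 and 3 and to 856 CPM in saline D100 replicate 1, and to at most 104 CPM in the other libraries. Exocrine pancreas markers summed to 32691 and 7963 CPM in saline D48 replicates 2 and 3 and to at most 8.78 CPM elsewhere. Colon epithelium markers (10 genes) summed to 20464 to 22972 CPM in Control, 29457 to 32610 at D27 and 24274 to 30110 at D48. They summed to 27166 to 37698 CPM at D100 and 25136 to 28100 with APX3330. Single markers of this list were called in both directions against Control. Smooth muscle markers (9 genes) summed to 10485 to 10761 CPM in Control, 7590 to 10254 at D27, 5199 to 6196 at D48, 5347 to 7024 at D100 and 4520 to 5916 with APX3330. Leukocyte markers (8 genes) summed to 234 to 296 CPM in Control, 561 to 734 at D27, 687 to 1317 at D48, 499.8 to 655 at D100 and 347 to 502 with APX3330. Skeletal muscle markers (6 genes) summed to 1788 and 810 CPM in Control replicates 1 and 3, which also held squamous transcripts, and to at most 30.03 CPM elsewhere. All 6 were called lower in all 4 comparisons with Control. Of all genes 9.36%, 13%, 10.5% and 8.18% were called lower than Control at D27, D48, D100 and with APX3330. Adipocyte markers (8 genes) summed to 22.4 to 44.9 CPM with APX3330 and to 61.1 to 184 CPM in the other groups. With APX3330 7 of 8 were called lower than at D27, as were 8 of 9 smooth muscle markers, against 4.37% of all genes. The tissue is a mixture of cell types, and fewer cells of a type and less RNA per cell cannot be told apart in it. The part of these cell types in the results below was not tested.

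The clock's proteins act through short DNA elements, and the stretches before the start sites of the members show which of these elements lie there. RefSeq promoters (GRCm38.p6, 250 bases before to 50 after a start site) were found for 9 of the 10 members, at 12 start sites. They were searched on both strands for CACGTG (the E-box bound by Arntl with Clock or Npas2), CACGTT (a variant E-box), TTANGTAA (the D-box bound by Dbp and Tef), TAGGTCA and TGGGTCA (cores of the element bound by the REV-ERB receptors) and TGACGTCA (the cAMP response element). In the stretches shown, capitals mark the match, and AACGTG is CACGTT read on the other strand.
Per1, E-box at position -166: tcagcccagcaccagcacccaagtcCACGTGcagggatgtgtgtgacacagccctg
Tef, E-box at position -138 of its downstream start site: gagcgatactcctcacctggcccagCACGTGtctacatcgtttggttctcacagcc
Nr1d1, variant E-box at position -28: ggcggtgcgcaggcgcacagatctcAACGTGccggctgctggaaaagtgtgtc
Cry2, variant E-box at position -166: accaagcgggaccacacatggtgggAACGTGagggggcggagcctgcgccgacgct
Per3, D-boxes at positions -205 and -158: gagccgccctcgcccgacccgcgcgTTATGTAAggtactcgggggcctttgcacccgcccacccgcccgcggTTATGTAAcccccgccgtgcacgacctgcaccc
Arntl, REV-ERB element at position 31: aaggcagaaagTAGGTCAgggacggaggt

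The Per1 stretch is chr11:69098758-69098813 on the plus strand, the Tef stretch chr15:81811251-81811306 (plus), the Nr1d1 stretch chr11:98775378-98775430 (minus), the Cry2 stretch chr2:92434205-92434260 (minus), the Per3 stretch chr4:151044791-151044895 (minus) and the Arntl stretch chr7:113207530-113207558 (plus). Tef holds a further CACGTG at position -127 of its other start site. Across all 32851 promoters of the same length CACGTG was found in 7.15%, CACGTT in 4.68%, TTANGTAA in 2.32%, TAGGTCA in 2.61%, TGGGTCA in 3.98% and TGACGTCA in 1.79%. Of the 9 members 2 held CACGTG, 2 CACGTT, 1 TTANGTAA and 1 TAGGTCA, and none held TGGGTCA or TGACGTCA in these windows. The shares count promoters and not genes. Counted by start site, the same 4 motifs were found at 3, 2, 1 and 1 of 12. A match describes the letters and not the binding of a factor.

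Nr1d1 and Nr1d2, the nuclear receptors that repress the activating arm, were highest in Control, lowest at D27 and D48, and in between at D100 and with APX3330. Nr1d1 (chromosome 11, 98767932 to 98775333, minus strand, GRCm38) stood at 169.9, 107 and 229 CPM in Control replicates 1, 2 and 3, at 26.4, 20.5 and 40.3 at D27, at 18.1, 31.4 and 11.4 at D48, at 97.4, 54.8 and 55.2 at D100, and at 64.6, 122 and 98.7 with APX3330. All D27 and D48 libraries lay below every library of the other 3 groups, and APX3330 replicate 2 lay above Control replicate 2. Against Control, Nr1d1 was 5.80-fold lower at D27 (log2 fold change -2.54 ± 0.378 SE, edgeR adjusted p = 0.000538), 8.34-fold lower at D48 (-3.06 ± 0.389, adjusted p = 8.86e-05) and 2.44-fold lower at D100 (-1.29 ± 0.359, adjusted p = 0.0181). With APX3330 the log2 fold change against Control was -0.83 ± 0.355, which was not called (edgeR adjusted p = 0.130). Nr1d1 shares 263 exon bases with Thra on the opposite strand, and the use of strand in counting is not given in the sources used here. Thra, a thyroid hormone receptor gene, had smaller log2 fold changes against Control, from -0.34 ± 0.0967 at D27 to -0.75 ± 0.0977 at D100.

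Nr1d2 (chromosome 14, 18204054 to 18239127, minus strand) stood at 106, 95.02 and 114 CPM in Control, at 25.3, 25.8 and 50.4 at D27, at 19.9, 29.6 and 18.99 at D48, at 74.8, 59.7 and 50.5 at D100, and at 64.7, 83.6 and 52.4 with APX3330. Control lay above all the other libraries, and D48 below those of D100 and APX3330. It was 3.11-fold lower than Control at D27 (log2 fold change -1.64 ± 0.252, edgeR adjusted p = 0.000681), 4.61-fold at D48 (-2.21 ± 0.259, adjusted p = 5.17e-05) and 1.71-fold at D100 (-0.77 ± 0.246, adjusted p = 0.0351). The APX3330 libraries did not overlap with Control either, but the log2 fold change of -0.65 ± 0.245 was not called (edgeR adjusted p = 0.0842).

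Among the Period genes, which encode the repressors that enter the nucleus with the cryptochromes, Per1 and Per3 were lower than Control in all 4 other groups, whereas Per2 went its own way. Per1 (chromosome 11) stood at 124, 100.5 and 124 CPM in Control, at 78.6, 75.1 and 56.5 at D27, at 81.97, 74.2 and 78.4 at D48, at 65.5, 52.3 and 51.5 at D100, and at 43.5, 61.5 and 61.1 with APX3330. Every Control library lay above all 12 others. The log2 fold changes against Control ran from -0.57 ± 0.148 at D48 (1.48-fold lower, edgeR adjusted p = 0.00992) to -1.07 ± 0.150 with APX3330 (2.10-fold lower, adjusted p = 0.000357), with -0.73 ± 0.149 at D27 and -1.04 ± 0.150 at D100. Unlike the REV-ERB genes, Per1 had its lowest group means at D100 and with APX3330, at 56.4 ± 7.87 and 55.4 ± 10.3 CPM (SD, n = 3).

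Per3 (chromosome 4) stood at 55.9, 46.2 and 54.7 CPM in Control, at 19.2, 13.98 and 20.8 at D27, at 25.6, 18.1 and 20.5 at D48, at 24.02, 18.3 and 12.1 at D100, and at 32.7, 32.5 and 26.1 with APX3330. Control did not overlap with any other group, and the APX3330 libraries lay above all 9 saline libraries. Per3 was 2.90-fold lower than Control at D27 (log2 fold change -1.54 ± 0.213, edgeR adjusted p = 0.000332), 2.44-fold at D48 (-1.29 ± 0.211), 2.88-fold at D100 (-1.53 ± 0.213) and 1.72-fold with APX3330 (-0.78 ± 0.208, adjusted p = 0.0199).

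Per2 (chromosome 1) stood at 58.3, 37.9 and 49.6 CPM in Control, at 29.4, 26.2 and 34.2 at D27, at 69.9, 48.4 and 72.7 at D48, at 52.1, 31.6 and 29.6 at D100, and at 23.2, 44.5 and 29.7 with APX3330. It was the 1 gene among the 8 repressor and output members with its highest mean at D48, the group in which Nr1d1, Nr1d2, Dbp and Tef had their lowest. It was not called against Control in any group, with log2 fold changes of -0.70 ± 0.251 at D27 (edgeR adjusted p = 0.0622), 0.39 ± 0.247 at D48, -0.37 ± 0.249 at D100 and -0.58 ± 0.250 with APX3330. All D48 libraries lay above all D27 libraries, a 2.13-fold difference (log2 1.09 ± 0.251, edgeR adjusted p = 0.0433).

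Cry2, a cryptochrome that represses the activating pair, was lower than Control in all 4 groups and lowest at D100. Cry2 (chromosome 2) stood at 55.6, 45.2 and 36.01 CPM in Control, at 27.3, 21.5 and 35.97 at D27, at 30.8, 21.1 and 23.3 at D48, at 24.2, 15.8 and 15.3 at D100, and at 24.5, 21.3 and 21.1 with APX3330. The lowest Control library and the highest D27 library were nearly level. The log2 fold changes against Control were -0.69 ± 0.217 at D27 (edgeR adjusted p = 0.0362), -0.86 ± 0.218 at D48, -1.31 ± 0.222 at D100 (2.48-fold lower, adjusted p = 0.000719) and -1.03 ± 0.219 with APX3330.

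Dbp and Tef, transcription factors of the PAR bZIP family that carry the clock's rhythm to its target genes, were likewise highest in Control and lowest at D27 and D48. Dbp (chromosome 7, 45705088 to 45710203, plus strand) stood at 36.9, 14.2 and 43.5 CPM in Control, at 3.35, 1.997 and 6.02 at D27, at 2.58, 2.67 and 2.26 at D48, at 15.2, 5.19 and 4.67 at D100, and at 6.55, 12.3 and 5.49 with APX3330. Control replicate 2 lay below D100 replicate 1, so those groups overlapped, and D48 was the tightest group. Dbp was 8.30-fold lower at D27 (log2 -3.05 ± 0.518, edgeR adjusted p = 0.00126), 12.6-fold at D48 (-3.66 ± 0.540, adjusted p = 0.000238), 3.78-fold at D100 (-1.92 ± 0.489) and 3.88-fold with APX3330 (-1.96 ± 0.489). With all libraries these were the largest changes of the 10 members in each comparison. Without the 3 libraries with squamous transcripts the log2 fold changes of Dbp were -1.92 in the D27 group, -2.52 in D48, -1.54 in D100 and -0.81 under APX3330, and under APX3330 those of Cry2 (-1.03), Per1 (-0.87) and Tef (-0.84) were larger, as were those of Per3 (-1.62) and Cry2 (-1.56) at D100. Dbp shares 539 exon bases with Sphk2, a sphingosine kinase gene on the opposite strand, whose log2 fold changes against Control lay between -0.15 ± 0.119 at D48 and -0.61 ± 0.120 at D100.

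Tef (chromosome 15) stood at 96.3, 68.5 and 109 CPM in Control, at 21.97, 23.8 and 34.4 at D27, at 20.9, 22.5 and 24.9 at D48, at 54.2, 32.7 and 26.8 at D100, and at 40.4, 47.1 and 27.7 with APX3330. Control lay above all the other groups. Tef was 3.41-fold lower at D27 (log2 -1.77 ± 0.257, edgeR adjusted p = 0.000452), 4.004-fold at D48 (-2.001 ± 0.26), 2.41-fold at D100 (-1.27 ± 0.253) and 2.37-fold with APX3330 (-1.25 ± 0.253, adjusted p = 0.00409).

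Neither gene of the activating arm was called against Control by edgeR with all libraries. In some other settings 1 of the 10 members was called higher than Control. At D27 this was with no filter, the DESeq2 test, only the 2 groups fitted, or without Control replicate 2. At D48 it was with no filter, the DESeq2 test or limma-voom. It was also so without Control replicate 2, D100 replicate 1 or 3, or APX3330 replicate 2 or 3. Of all genes 11.7% to 22.5% (D27) and 15.2% to 29.1% (D48) were then called in either direction. Arntl (chromosome 7, 113207465 to 113314126, plus strand) stood at 36.99, 59.4 and 34.5 CPM in Control, at 68.03, 67.3 and 56.9 at D27, at 75.4, 57.5 and 64.5 at D48, at 40.4, 48.2 and 61.1 at D100, and at 50.1, 42.5 and 71.5 with APX3330. Control replicate 2 lay within the range of the other groups, while replicates 1 and 3 were the lowest of all 15 libraries. Log2 fold changes against Control were 0.56 ± 0.215 at D27 (edgeR adjusted p = 0.0824), 0.59 ± 0.215 at D48 (adjusted p = 0.0517), 0.19 ± 0.216 at D100 and 0.33 ± 0.216 with APX3330, and none was called. The D100 and APX3330 values changed sign, to -0.14 and -0.12, without the 3 libraries holding squamous transcripts.

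Npas2, the partner of Arntl that can stand in for Clock (chromosome 1), stood at 42.5, 60.5 and 42.5 CPM in Control, at 49.6, 61.6 and 52.6 at D27, at 72.8, 49.7 and 50.8 at D48, at 36.03, 36.9 and 45 at D100, and at 52.9, 36.9 and 53.3 with APX3330. Its groups overlapped with Control throughout. No comparison with Control was called, with log2 fold changes from -0.30 ± 0.184 at D100 to 0.25 ± 0.182 at D48. The D100 libraries lay below all D27 and D48 libraries, at log2 fold changes of -0.47 ± 0.183 (edgeR adjusted p = 0.159) and -0.56 ± 0.183 (adjusted p = 0.0556), which were not called. Over the 5 groups an edgeR F test called 8 of the 10 members, against 37.3% of all genes. Arntl (adjusted p = 0.136) and Npas2 (adjusted p = 0.134) were the 2 not called, which does not show that their levels were equal.

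**Figure D1:**
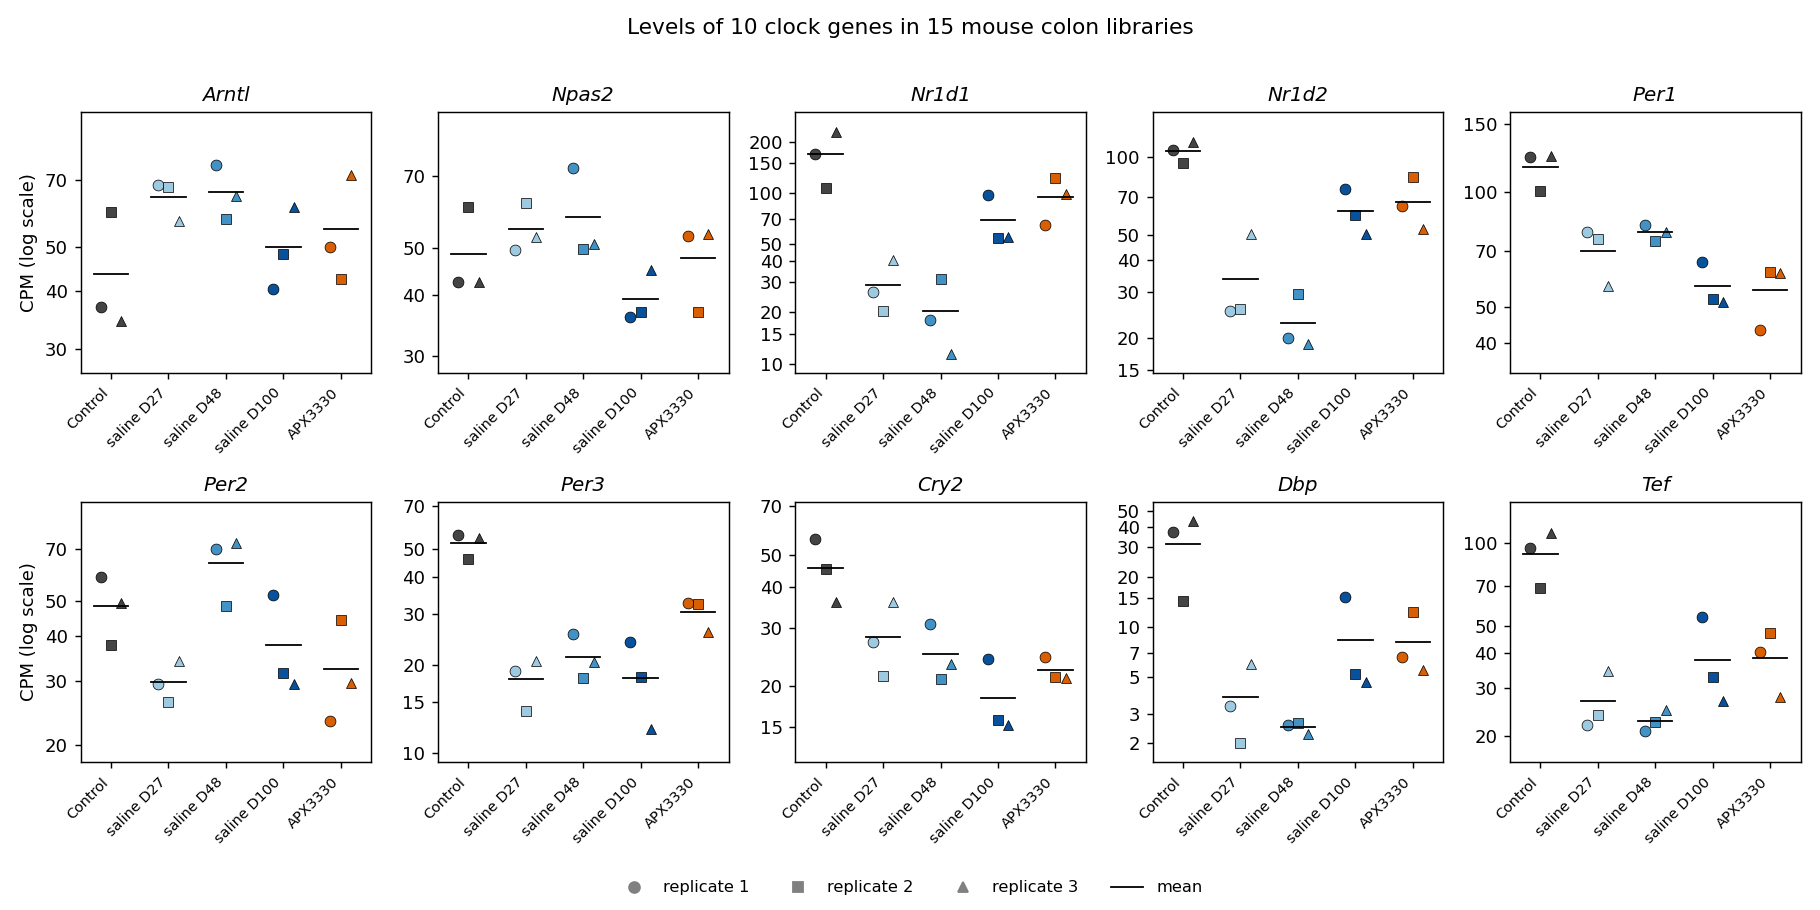
Level of each of the 10 clock genes in every library (CPM on a log axis, 5 groups of 3 libraries, marker shape for the replicate, bar for the mean). The 3 Control libraries lie above the D27 and D48 libraries for Nr1d1, Nr1d2, Per1, Per3, Dbp and Tef, while the ranges of Arntl and Npas2 in the other groups overlap with those in Control.

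Per kilobase of exon, a scale that allows genes to be compared with each other, Nr1d1 was the most abundant member in Control at 54.8 ± 19.8 CPM per kilobase (SD, n = 3). Per1 (20.6 ± 2.4) and Nr1d2 (19.4 ± 1.79) followed and did not differ beyond their spread. Next came Tef (11.6 ± 2.62), Dbp (10.55 ± 5.13) and Npas2 (10.1 ± 2.17), whose spreads overlapped, and Arntl (5.80 ± 1.82) and Per3 (5.44 ± 0.549) were last. At D48 the order of levels per kilobase was different: Per1 (13.9 ± 0.688), Npas2 (12.1 ± 2.72) and Per2 (10.9 ± 2.27) led, the spreads of Arntl (8.75 ± 1.2) and Nr1d1 (6.596 ± 3.30) overlapped, and Dbp was last at 0.836 ± 0.0705. The CPM ratio of Nr1d1 to Arntl, which is not scaled for length and serves only to compare libraries, was 4.59, 1.80 and 6.63 in Control replicates 1, 2 and 3. It was between 0.177 and 0.708 in the 6 libraries of D27 and D48, between 0.903 and 2.41 at D100, and between 1.29 and 2.87 with APX3330.

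For each library the log2 CPM of the 8 repressor and output genes, centred on the mean of all 15 libraries, was averaged, and the same was done for Arntl and Npas2. In every group but D48, the library with the highest average of the 8 genes had the lowest average of the activators. The difference between these averages was 1.61, 0.50 and 1.66 in Control, -0.72, -1.10 and -0.23 at D27, -0.99, -0.55 and -0.79 at D48, 0.81, -0.01 and -0.49 at D100, and -0.08, 0.74 and -0.36 with APX3330. Within Control replicate 2 stood apart, with the lowest Nr1d1, Dbp and Tef and the highest Arntl and Npas2 of its group. Control replicates 1 and 3 and D100 replicate 1, which held the squamous transcripts, had the highest difference of their groups, and APX3330 replicate 2, which held 5.67 CPM of squamous markers, had the highest of its own. At D48 the highest difference was in replicate 2, which held 104 CPM of squamous and 32691 CPM of pancreatic markers, and replicate 1 was the highest of that group in both averages (-0.47 for the 8 genes and 0.53 for the activators). At D27 the highest difference was in replicate 3, whose smooth muscle markers (10254 CPM) were the highest of that group.

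**Figure D2:**
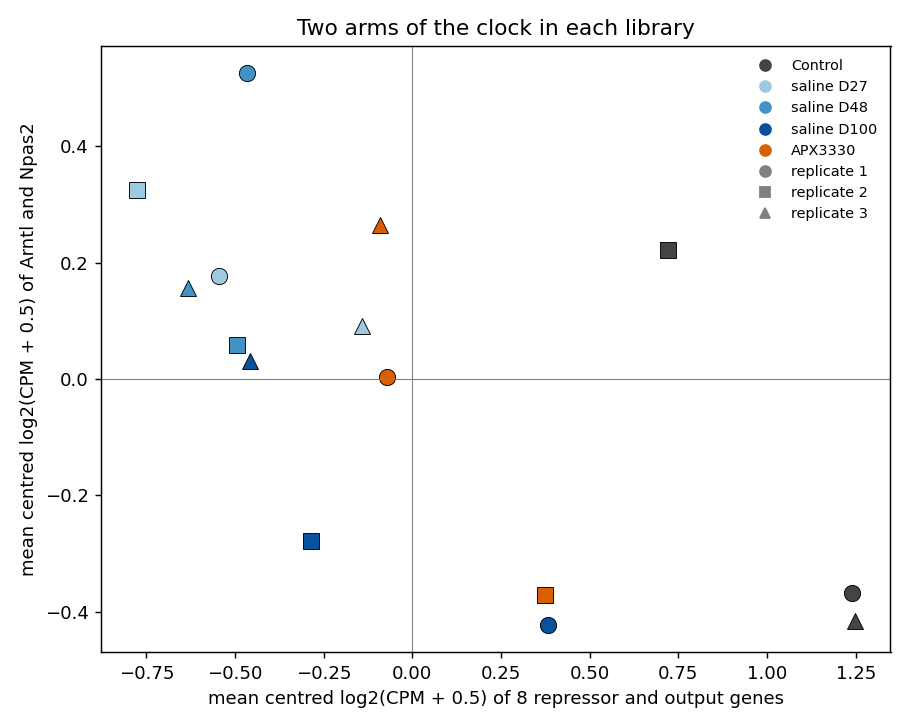
Mean centred log2(CPM + 0.5) of the 8 repressor and output genes (horizontal) against that of Arntl and Npas2 (vertical), with 1 point for each library, colour for the group and shape for the replicate. Control replicates 1 and 3 lie at the lower right, D27 and D48 at the upper left, and Control replicate 2 stands apart from its group.

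Pairs of members were also compared by the Pearson correlation of their deviations from the group means over the 15 libraries, given as a description since the points share libraries, scaling and cell makeup. Among the 28 pairs of repressor and output genes 26 had a positive value, with a median of 0.51. Dbp and Tef had the highest at 0.89. Of the 16 pairs of Arntl or Npas2 with 1 of these genes 15 were negative, with a median of -0.53, and Arntl with Tef was the lowest at -0.89.

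Comparisons of the saline days with Control ask how clock transcripts differed along the model. Since the members were chosen with earlier results known, the shares of all genes give a scale and no test of the set. At D27, 7 of the 10 members fell and none rose, against 9.36% of all 18038 genes called lower and 10.2% called higher. The 7 were Nr1d1, Nr1d2, Per1, Per3, Cry2, Dbp and Tef, and the groups did not overlap for 8 of 10 members, against 38.2% of genes. The same 7 fell at D48, against 13% of genes called lower, and at D100, against 10.5%, and none rose, against 14.3% and 11.4% of genes called higher. Ranges did not overlap for 7 members at D48 (42.5% of genes) and for 6 at D100 (39.9%). The median absolute log2 fold change of the members was 1.13, 1.08 and 1.15 at D27, D48 and D100, beside 0.29, 0.33 and 0.31 over all genes tested.

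Several of these calls depended on which libraries were in the fit. Without the 3 libraries with squamous transcripts, which leaves 1 Control library assumed to vary like the other groups, 4 members remained called lower at D27, 5 at D48 and 4 at D100. The share of all genes called in either direction was then 2.1%, 6.53% and 5.07%. Some log2 fold changes were nearly the same without them, as for Cry2 at D27 (-0.69) and D48 (-0.87). Others were smaller, as for Dbp at D27 (-1.92), Nr1d1 at D27 (-1.89) and Per1 at D27 (-0.54) and D48 (-0.38). Cry2 and Per1 lost their calls at both days, and Dbp lost its call at D27. Without the 2 libraries with pancreatic transcripts, which leaves 1 D48 library, 4 remained at D48, beside 7.75% of all genes. The Cry2 call at D27 was lost on leaving out Control replicate 1 (adjusted p = 0.165) or 2 (0.0727), or D27 replicate 1 (0.102) or 2 (0.167), and that at D48 without Control replicate 1 (0.0506). At D100, leaving out Control replicate 3 or D100 replicate 2 or 3 left 4 members called, and Dbp, Nr1d1 and Nr1d2 lost their calls (edgeR adjusted p of 0.0524 to 0.140). Nr1d2 at D100 was also lost without Control replicate 1 (adjusted p = 0.0840) and with the replicate number as a block (adjusted p = 0.0528).

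APX3330 against Control asks which differences were present in treated mice, whose day is not given. Per1, Per3, Cry2, Dbp and Tef fell, 5 of 10 members against 8.18% of genes called lower, and none rose, against 7.16% called higher. Groups did not overlap for 6 members (32.4% of genes). Without Control replicate 1 or 3, or without APX3330 replicate 3, 3 members remained called lower. Dbp was lost without Control replicate 1 or 3 or APX3330 replicate 1 or 3 (edgeR adjusted p of 0.0518 to 0.0654) and Per3 without Control replicate 1 or 3 or APX3330 replicate 3 (0.0645 to 0.0826). Without the 3 libraries with squamous transcripts Per1 alone remained, beside 1.96% of all genes called in either direction, and the log2 fold change of Dbp went from -1.96 to -0.81.

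**Figure D3:**
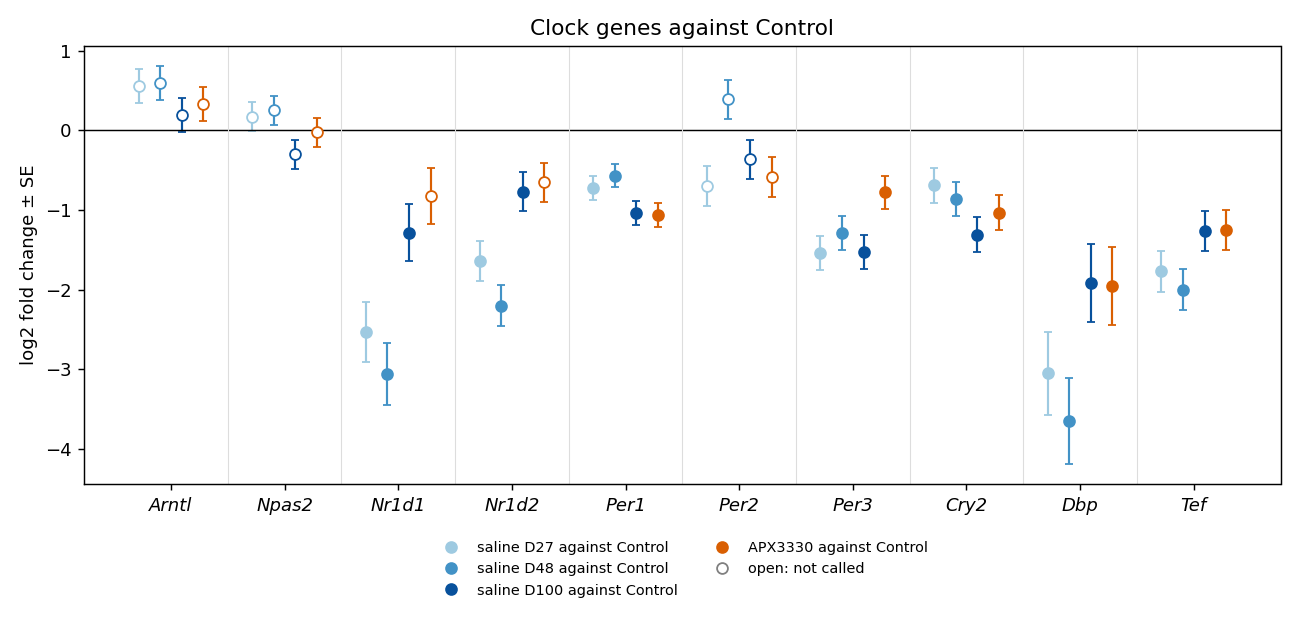
Log2 fold change against Control with its SE for each clock gene at saline D27, D48 and D100 and with APX3330 (filled points called at an adjusted p below 0.05, open points not called). Dbp lies lowest, at -3.66 for D48, and Arntl lies above 0 in all 4 comparisons without being called.

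Comparing APX3330 with saline is the purpose that the series states for its design, and the clock genes differed according to the saline day used. These 3 comparisons share the APX3330 libraries. Against D27, Nr1d1 (3.27-fold, log2 1.71 ± 0.370, edgeR adjusted p = 0.0141), Nr1d2 (1.98-fold, 0.98 ± 0.250, adjusted p = 0.0260) and Per3 (1.69-fold, 0.76 ± 0.212, adjusted p = 0.0372) were higher with APX3330. That is 3 of 10 members, against 4.71% of genes called higher, and none was lower, against 4.37%. Ranges did not overlap for 3 members (29.3% of genes). No member remained called without D27 replicate 1 or 2 or without APX3330 replicate 2, with edgeR adjusted p of 0.0615 to 0.0708 for Nr1d1 and 0.115 to 0.118 for Nr1d2. Per3 was also lost without Control replicate 3 (adjusted p = 0.0527), APX3330 replicate 1 (0.0747) or APX3330 replicate 3 (0.0607).

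Against D48 the contrast was larger and went both ways. Nr1d1 was 4.70-fold higher with APX3330 (log2 2.23 ± 0.380, edgeR adjusted p = 0.00126), Nr1d2 2.93-fold (1.55 ± 0.256, adjusted p = 0.00106) and Dbp 3.24-fold (1.70 ± 0.528, adjusted p = 0.0344). Per2 was 1.96-fold lower (-0.97 ± 0.250, edgeR adjusted p = 0.0142) and Per1 1.41-fold lower (-0.50 ± 0.150, adjusted p = 0.0295). So 3 of 10 members were called higher, against 9.41% of genes, and 2 lower, against 10.3%. Ranges did not overlap for 7 members (34.1% of genes), among them Tef at log2 0.75 ± 0.257 (edgeR adjusted p = 0.0504). The counts of members called fell to 3 without D48 replicate 1, 2 without D48 replicate 3 and 3 without APX3330 replicate 1. Nr1d1 and Nr1d2 kept their calls without any 1 library, and without both libraries with pancreatic transcripts. Dbp lost its call without D48 replicate 1, 2 or 3 or APX3330 replicate 2 (edgeR adjusted p of 0.0766 to 0.159), Per1 without D48 replicate 1 or 3 or APX3330 replicate 1 (0.0754 to 0.111) and Per2 without D48 replicate 3 or APX3330 replicate 1 or 3 (0.0549 to 0.0573).

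Against D100 no member was called by edgeR, while 0.504% of all genes were. At an unadjusted p below 0.05 there was 1 member, Per3 (log2 0.75 ± 0.212, 1.68-fold higher with APX3330, adjusted p = 0.135). It was also the 1 member called by DESeq2 and the 1 member without overlap, against 17% of genes. The remaining log2 fold changes lay between -0.22 ± 0.251 (Per2) and 0.46 ± 0.357 (Nr1d1). With SEs of up to 0.490 (Dbp), a missed call does not show that the groups were alike.

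**Figure D4:**
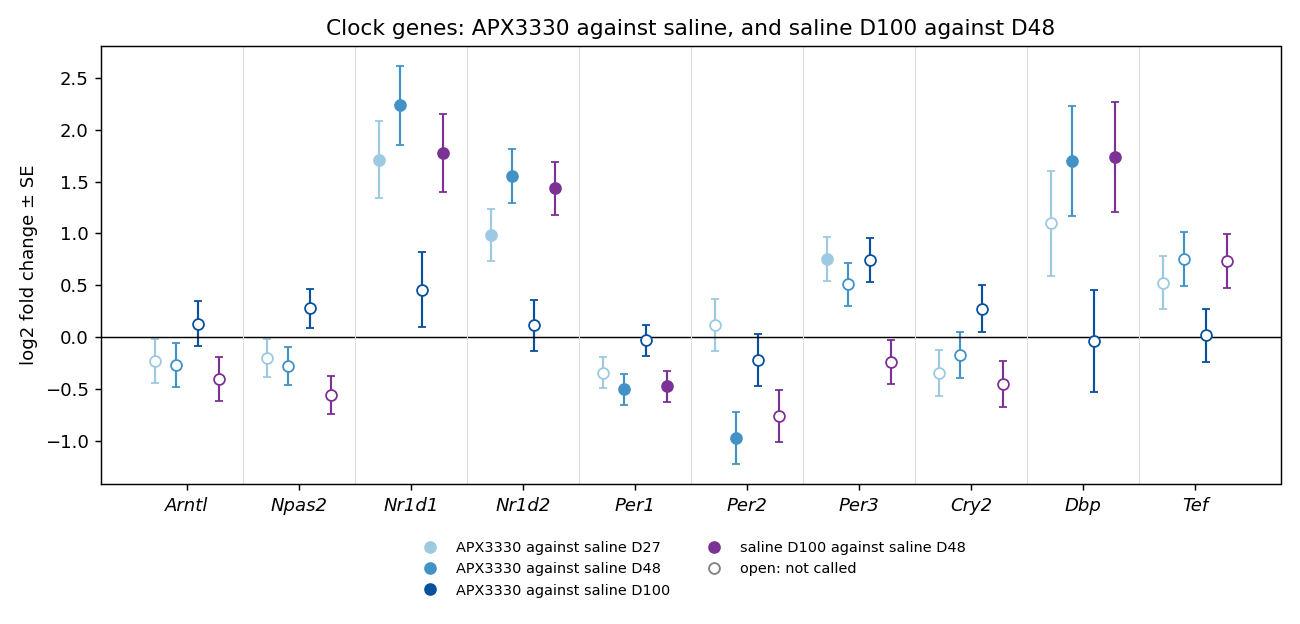
Log2 fold change with its SE for each clock gene in APX3330 against saline D27, D48 and D100, and in saline D100 against D48 (filled points called at an adjusted p below 0.05, open points not called). Nr1d1 is highest against D48, at 2.23 for APX3330 and 1.77 for D100, and none is called for APX3330 against D100.

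Among saline days, the REV-ERB genes and Dbp were higher again at D100 than at D48. Nr1d1 was 3.42-fold higher (log2 1.77 ± 0.378, edgeR adjusted p = 0.00710), Nr1d2 2.70-fold (1.44 ± 0.256, adjusted p = 0.00267) and Dbp 3.33-fold (1.74 ± 0.528, adjusted p = 0.0399), while Per1 was 1.39-fold lower (-0.47 ± 0.150, adjusted p = 0.0484). That is 3 of 10 members higher, against 7.2% of genes, and 1 lower, against 6.4%. Ranges did not overlap for 6 members (32.6% of genes). With the replicate number as a block 2 remained, Nr1d1 and Nr1d2, and the same count was left without Control replicate 1, D27 replicate 1, D48 replicate 1 or D48 replicate 3. Dbp, at log2 0.98 without D100 replicate 1 (edgeR adjusted p = 0.235), which held squamous transcripts, also lost its call without D48 replicate 2 (0.0865). The Dbp call was lost in 10 of 23 alternatives, among them limma-voom (adjusted p = 0.201), and the Per1 call in 14 of 23. Without the 2 libraries with pancreatic transcripts 1 member remained, Nr1d2, beside 2.52% of all genes called in either direction.

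Between D48 and D27 Per2 alone was called, 1 member against 0.854% of genes called higher, and none was lower, against 0.499%. Ranges did not overlap for 1 member (20.1% of genes). That call was lost in 11 of 23 alternatives, among them the replicate block (adjusted p = 0.0635) and each of D27 replicates 1, 2 and 3 and D48 replicates 1 and 3 left out (0.103 to 0.159). It was also lost without Control replicate 3, D100 replicate 2 or APX3330 replicate 3 (0.0525 to 0.0672). Between D100 and D27 edgeR called no member, against 3.08% of genes, with 5 at an unadjusted p below 0.05 and 1 called by DESeq2. Ranges did not overlap for 3 of them, against 25.9% of genes, and 1 member, Nr1d2, was called higher without D27 replicate 3 (log2 1.27). Nr1d1 (log2 1.25 ± 0.368, adjusted p = 0.0776) and Nr1d2 (0.87 ± 0.250, adjusted p = 0.0738) had the smallest adjusted p.

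Of 18 other clock genes and regulators, 3 rose and 4 fell at D27, 3 and 5 at D48, 1 and 5 at D100, and 1 and 4 with APX3330, all against Control. Of all genes 10.2% rose and 9.36% fell at D27, 14.3% and 13% at D48, 11.4% and 10.5% at D100, and 7.16% and 8.18% with APX3330. The median log2 fold change of this list was -0.07, -0.05, -0.16 and -0.14, beside -0.0013, 0.0043, 0.0045 and 0.015 over all genes. Clock, the usual partner of Arntl, was not called in any comparison and stood at 121 ± 12.1 CPM in Control and between 112 ± 19.1 (D27) and 135 ± 5.66 (APX3330) in the others. Nfil3 and Cry1 were among the genes of the list with the smallest p over the 5 groups.

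Nfil3, a repressor that competes with Dbp and Tef for D-boxes, went opposite to them. It stood at 6.18, 6.72 and 3.26 CPM in Control, at 25.4, 22.4 and 18.98 at D27, at 22.2, 21.1 and 18.6 at D48, at 15.8, 20.5 and 23.9 at D100, and at 11.2, 15.5 and 14.6 with APX3330. Control lay below all 12 other libraries. Nfil3 rose by a log2 fold change of 2.05 at D27 (edgeR adjusted p = 0.0001), 1.94 at D48, 1.90 at D100 and 1.36 with APX3330 (adjusted p = 0.00154).

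Cry1, the second cryptochrome and a late repressor of the loop, went opposite to Cry2 at the early days. It stood at 15.2, 17.97 and 14.05 CPM in Control, at 30.8, 33.5 and 22.3 at D27, at 39.03, 33.2 and 38.1 at D48, at 19.6, 16.6 and 27.2 at D100, and at 15.8, 14.003 and 20.1 with APX3330. Cry1 rose against Control at D27 (log2 0.88, edgeR adjusted p = 0.00624) and D48 (1.23, adjusted p = 0.000422), and was lower with APX3330 than at D27 (-0.80, adjusted p = 0.0231) and D48 (-1.14, adjusted p = 0.00127). The D100 and APX3330 ranges overlapped with that of Control.

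Hlf and Ciart were chosen after their values were seen. Hlf, the third PAR bZIP factor, was called lower at D27 (log2 -1.41), D48 (-2.004) and with APX3330 (-1.27), and Ciart, a clock repressor, in all 4 comparisons with Control (-1.87 to -2.69).

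**Figure D5:**
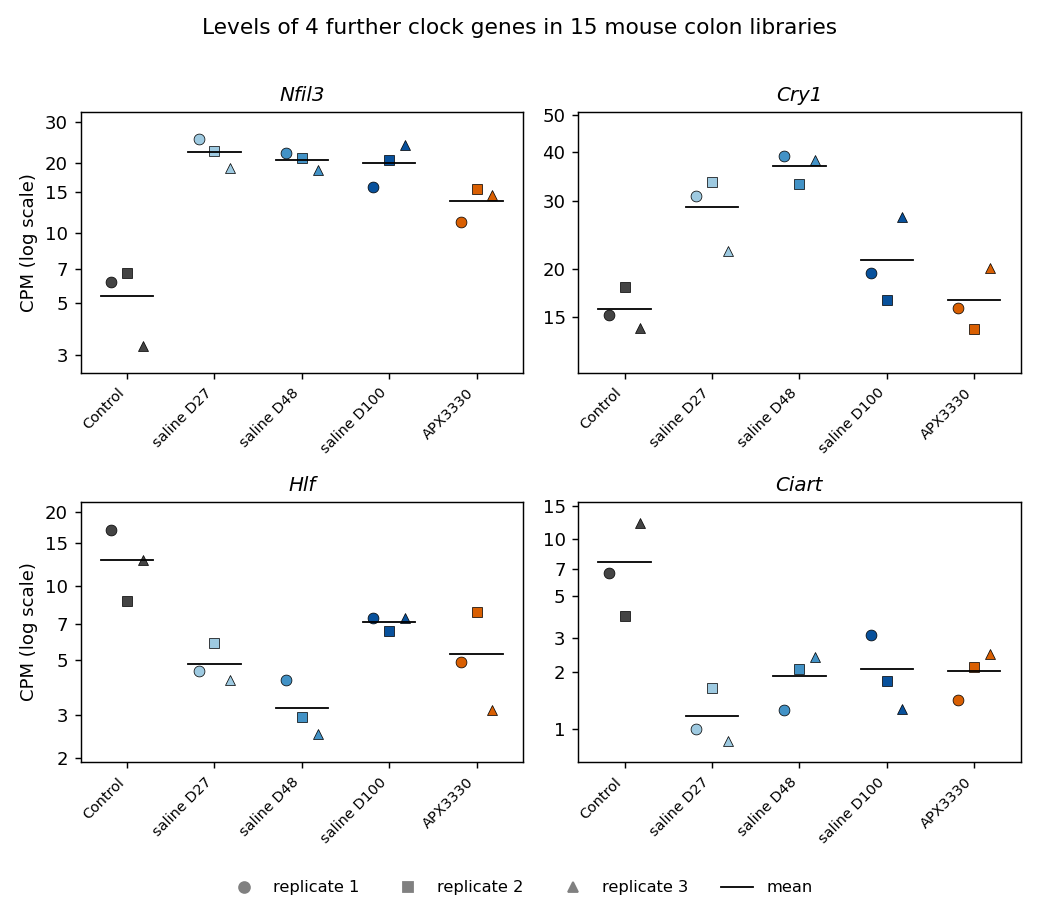
Level of 4 further clock genes in every library (CPM on a log axis, 5 groups of 3 libraries, marker shape for the replicate, bar for the mean). Nfil3 is lowest in Control, Cry1 is highest at D27 and D48, and Hlf and Ciart are highest in Control.

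Of 10 output genes known to cycle in many mouse tissues, 1 rose and 1 fell at D27, 3 and 3 at D48, 2 and 4 at D100 and 1 and 4 with APX3330 against Control. The counts of 1 each way at D27 are those of the background (10.2% higher and 9.36% lower), and 1 of 10 higher with APX3330 is near the 7.16% of all genes. Of all genes 14.3% rose and 13% fell at D48, 11.4% and 10.5% at D100, and 8.18% fell with APX3330. Of these, Tsc22d3 is also a glucocorticoid target. The 4 with the smallest p over the 5 groups were Usp2, Nampt, Wee1 and Pfkfb3. Usp2, a ubiquitin protease that cycles in many organs, stood at 39.8 ± 6.58 CPM in Control and fell at D48 (log2 -0.97, edgeR adjusted p = 0.0013), D100 (-1.25) and with APX3330 (-0.80). Wee1, a kinase that holds back cell division, fell in all 4 groups, from 31.04 ± 1.95 CPM to between 16.6 ± 4.38 (D100) and 19.7 ± 0.828 (APX3330). Nampt, the rate-limiting enzyme of NAD salvage, rose at D100 alone among the 4 (68.5 ± 2.91 to 105 ± 9.74 CPM, log2 0.62, edgeR adjusted p = 0.000659). Pfkfb3, a regulator of glycolysis, rose at D48 (log2 0.77, adjusted p = 0.00572).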

How the data were processed

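Colon RNA from 15 mouse libraries was analysed from 1 table of whole-number counts per gene, deposited by the authors without normalisation. Per the labels' protocols, libraries were made with a SMARTER kit, and per the submitters' processing notes the builds were GRCm38 and mm10. For aligner, counter and strand setting the sources used here name none. Columns were matched to samples by their description.

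All 15 libraries were fitted in R 4.3.3 with edgeR 4.0.16 (filterByExpr, TMM, glmQLFit, glmQLFTest) for 10 comparisons and an F test, with a call at a Benjamini-Hochberg adjusted p below 0.05 over 18038 genes. CPM used TMM-scaled library sizes. The SE is the log2 fold change over the square root of F. Total counts of 13548661 or more per library left at least 29 counts for every member in every library. The fit was tested on simulated counts drawn from its own estimates of spread, so the run cannot show whether those estimates suit these libraries. No simulated library held extra transcripts of another tissue, so the run does not cover that case.

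Alternatives were DESeq2 size factors, no filter, the DESeq2 test (1.42.0), limma-voom (limma 3.58.1), a replicate block, fits of only the 2 groups compared, and libraries left out. The members and lists were chosen with earlier results of these data known. Of each further list the 4 genes with the smallest F test p were chosen for naming, and some of them are not reported here. Genes of like pattern had a mean of at least 5 CPM and the 5 highest or lowest correlations. Gene positions and exon lengths are from GENCODE M21 (GRCm38), and promoters from RefSeq. Pairs of libraries within groups differed by more than counting noise. Figures were drawn with matplotlib 3.10.9.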

Additional observations from a re-analysis of the deposited data

How the results depend on the processing

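Of 39 calls of a member in a comparison, 16 held in all 23 alternatives, 23 were lost in at least 1, and no call changed sign. Without the 3 libraries with squamous transcripts the members called numbered 4 at D27, 4 at D100 and 1 with APX3330, each against Control, beside 2.1%, 5.07% and 1.96% of all genes. Without the 2 libraries with pancreatic transcripts they numbered 4 for D48 against Control, 2 for APX3330 against D48, 0 for D48 against D27 and 1 for D100 against D48, beside 7.75%, 4.29%, 0.121% and 2.52% of all genes. With no filter on low counts they numbered 8 for APX3330 against Control, 5 for APX3330 against D27, 1 for APX3330 against D100, 2 for D48 against D27, 6 for D100 against D27 and 8 for D100 against D48, beside 9.8%, 6.56%, 2.33%, 2.74%, 3.56% and 8.57% of all genes. The DESeq2 test gave 1 for APX3330 against D100, 1 for D100 against D27 and 7 for D100 against D48, beside 2.7%, 8.01% and 19% of all genes. Fits of only the 2 groups gave 0 for D48 against D27 and 1 for D100 against D27, beside 0.291% and 2.13% of all genes. The cause was not tested in any of these.

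Replicate numbers did not pair the libraries: the correlation of deviations from the group means was over 0.1 for 2 of 30 same-numbered pairs, with a range of -0.14 to 0.25. With the replicate number as a block, members called numbered 7, 7, 6 and 5 for D27, D48, D100 and APX3330 against Control, 3 and 5 for APX3330 against D27 and D48, 0 for D48 against D27 and 2 for D100 against D48.

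Leaving out 1 library at a time gave 6 to 8 members called at D27 and at D48, 4 to 7 at D100 and 3 to 6 with APX3330, each against Control. It gave 0 to 3 for APX3330 against D27, 2 to 6 against D48 and 0 against D100, 0 to 1 for D48 against D27, 0 to 1 for D100 against D27, and 2 to 5 for D100 against D48.

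Sign changes touched uncalled log2 fold changes alone. Without the squamous libraries Arntl went to -0.12 (APX3330 against Control) and -0.14 (D100 against Control), Npas2 to -0.17 (D27) and -0.085 (D48) against Control, and Dbp, Per1 and Per2 to 0.73, 0.10 and 0.10 for APX3330 against D100. Per3 for D100 against D27 went to -0.24 without them, -0.024 with limma-voom, -0.00459 with the block and -0.000238 with no filter. Dbp for APX3330 against D100 went to 0.093 with limma-voom and 0.10 with the block, and Cry2 for D48 against D27 to 0.13 without the pancreatic libraries. With 1 library left out, values for APX3330 against D100 ran from -0.11 to 0.30 (Arntl), -0.47 to 0.72 (Dbp), -0.075 to 0.28 (Nr1d2), -0.11 to 0.12 (Per1), -0.51 to 0.087 (Per2) and -0.18 to 0.37 (Tef). For D48 against D27 they ran from -0.075 to 0.13 (Arntl), -0.36 to 0.038 (Cry2) and -0.12 to 0.18 (Npas2). They ran from -0.29 to 0.022 for Cry2 in APX3330 against D48, -0.11 to 0.17 for Npas2 in APX3330 against Control, -0.18 to 0.31 for Per2 in APX3330 against D27 and -0.24 to 0.23 for Per3 in D100 against D27.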

Other observations

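Of 8 targets of the glucocorticoid receptor, a hormone receptor whose ligand follows the time of day and which also drives Per1, 7 were tested, and Mt2 was below the filter. Against Control 4 of 7 fell in each of the 4 comparisons and none rose, while 9.36%, 13%, 10.5% and 8.18% of all genes were called lower and 10.2%, 14.3%, 11.4% and 7.16% higher at D27, D48, D100 and with APX3330 respectively. Sgk1, a kinase that regulates sodium transport, stood at 552 ± 154 CPM in Control, 130.5 ± 39.1 in the D27 group, 118 ± 16.7 in D48, 128 ± 4.38 in D100 and 162 ± 76.9 under APX3330. Zbtb16, a transcription factor, went from 39.9 ± 6.52 CPM in Control to 6.94 ± 1.65 at D27 and 4.89 ± 3.36 at D48, and stood at 11.5 ± 3.94 at D100 and 23.9 ± 12.2 with APX3330. It was higher with APX3330 than at D27 (log2 1.78, edgeR adjusted p = 0.0221) and D48 (2.30, adjusted p = 0.00279), as Nr1d1 and Nr1d2 were. The list went both ways: of 7 targets 1 was higher and 1 lower with APX3330 than at D27. Of all genes 4.71% were called higher and 4.37% lower in that comparison. Against D48 2 targets were higher and 2 lower with APX3330, beside 9.41% and 10.3% of all genes. Klf9, a transcription factor, fell in all 4 comparisons with Control, where it stood at 200.04 ± 4.99 CPM, to between 99.2 ± 19.5 (D48) and 122 ± 19.96 CPM (APX3330). Fkbp5, a chaperone of the receptor, fell at D27 (log2 -1.13) and D48 (-1.14) and was not called at D100 or with APX3330 against Control. Sgk1 was at 610.02, 668 and 377 CPM in Control replicates 1, 2 and 3, and Fkbp5 at 146, 139.9 and 158 CPM.

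Other genes whose level followed the difference between the arms over the 15 libraries are given as a description with Pearson's r, among 11655 candidate genes. Group differences shape these values, and the libraries share depth scaling and cell makeup. The highest values were those of Tpt1-ps3 (0.92), Get1 (0.91), Anxa7 (0.91), Il1rl2 (0.90) and Vps26a (0.90). Tpt1-ps3 is a pseudogene, and its reads may come from Tpt1. The lowest were those of Cacna1d (-0.94), Cpne2 (-0.93), E2f2 (-0.92), Zfp511 (-0.92) and Rbck1 (-0.91). Anxa7, an annexin, stood at 288 CPM in Control and 174, 176, 198 and 205 CPM in the D27, D48, D100 and APX3330 groups. E2f2, a cell cycle transcription factor, stood at 28.3, 56.8, 51.2, 38.5 and 33.4 CPM in the same order of groups.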
